A study of Drosophila melanogaster with 3 samples.

Results

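Insertions of the long terminal repeat (LTR) retrotransposons *412*, *mdg1*, *mdg3* and *blood*, together with those of their relatives *Stalker*, *Stalker2* and *Stalker4*, were described in the *Drosophila melanogaster* strain ORw1118. They were chosen by family name alone from the calls made with reads treated as single-end, without a minimum of the coverage ratio, and made up 198 of the 1702 calls of that list, which names 89 transposable element (TE) families. *412* had 63 calls, *mdg1* 46, *blood* 36, *mdg3* 22, *Stalker2* 12, *Stalker4* 11 and *Stalker* 8. The study sequenced genomic DNA of Oregon-R w1118 adult females raised at 25°C, from 100 flies in each of 3 biological replicates, to find the TEs that are present in the strain it used for Hi-C. The replicates were pooled before TEs were called, so each call has 1 value per list and the spread between replicates cannot be given. All flies of these genomic DNA samples were of 1 strain and 1 sex, and no treatment or second genotype is among them. TEs were called from both the single reads of each pair and overlapping pairs joined into longer reads, and the merged list serves here as a repeat of the calling on the same libraries.

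LTR retrotransposons move through an RNA copy that is reverse transcribed and inserted elsewhere, so the parent copy stays in place and a new copy carries the same repeat at both ends. The LTR holds the promoter of the element. *412*, *mdg1*, *mdg3*, *blood* and the *Stalker* elements belong to the gypsy superfamily, and in *Drosophila* such elements are held down by Piwi-interacting RNAs and by H3K9me2/3, a repressive chromatin mark that can spread from a TE into flanking DNA. Copies in euchromatin often differ between strains and between flies of a strain.

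The coverage ratio compares the reads that support an insertion with those of the site without it (supporting reads over reference reads plus 1), and a high ratio is given by a site at which few reads came from chromosomes that lack the TE. Over all 198 calls the ratio ran from 0.1 to 11.3 with a median of 1.45, against a median of 0.8 for the 1504 calls of other families and 1 for the 302 of *roo*, the LTR family with which they are compared throughout. The medians were 2.05 for *mdg3*, 1.75 for *Stalker2*, 1.6 for *mdg1*, 1.5 for *blood*, 1.2 for *412*, 0.45 for *Stalker* and 0.2 for *Stalker4*. The interquartile ranges of *412* (0.2 to 2.95), *mdg1* (0.4 to 2.58), *mdg3* (1.2 to 2.58) and *blood* (0.6 to 2.75) overlapped, and neighbours in this order differed by less than these ranges. Supporting reads followed the same order at its ends, with medians of 72.5 for *mdg3*, 64.5 for *Stalker2*, 57.5 for *blood*, 52 for *mdg1*, 43 for *412*, 18 for *Stalker* and 14 for *Stalker4*.

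**Figure D1:**
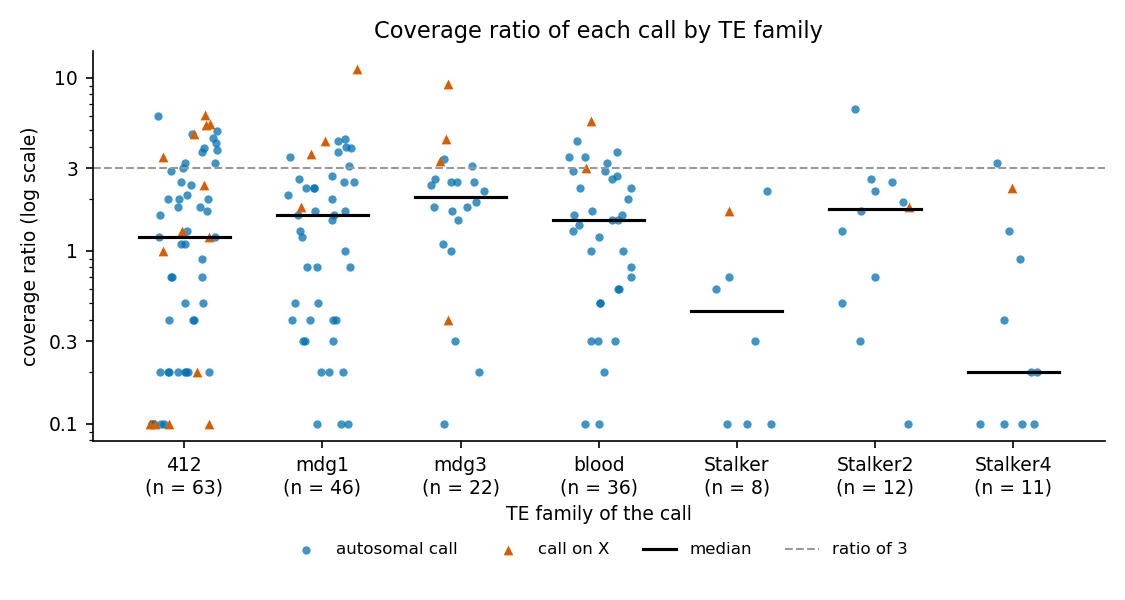
Coverage ratio (log axis, no unit) of each of the 198 calls by TE family, with calls on X as triangles, calls on autosomes as circles, bars at the median and a dashed line at a ratio of 3. The calls of *412* spread from 0.1 to 6.1 around a median of 1.2, whereas most calls of *mdg3* lie between 1 and 3.

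A ratio of at least 3, the minimum that the study set for a TE, was reached by 40 of 198 calls (20.2%, exact 95% binomial interval 14.8 to 26.5), beside 16.4% of all 1702 calls, 15.9% of other families (14.1 to 17.8) and 22.5% of *roo*. It was reached by 16 of 63 calls of *412* (25.4%, 15.3 to 37.9), 10 of 46 of *mdg1* (21.7%, 10.9 to 36.4), 5 of 22 of *mdg3* (22.7%, 7.82 to 45.4) and 7 of 36 of *blood* (19.4%, 8.19 to 36). The intervals of these 4 families all hold the share of the whole list. *Stalker2* and *Stalker4* had 1 such call each, and *Stalker* had 0 of 8, which allows a share of up to 36.9%. At the other end, 27 of 63 *412* calls had a ratio below 1 (42.9%, 30.5 to 56.0), beside 51.1% of all calls, and 16 had at most 10 supporting reads (25.4%, 15.3 to 37.9), beside 18.7%. Of the *mdg3* calls, 4 of 22 had a ratio below 1 (18.2%, 5.19 to 40.3), 13 lay from 1 to below 3 (59.1%, 36.4 to 79.3), beside 32.5% of all calls, and 1 had at most 10 reads (4.55%, 0.115 to 22.8). The intervals of *412* and *mdg3* for a ratio below 1 overlap. The share below 1 in *mdg3* stands beside 52.6% (50 to 55.1) in other families, and the intervals do not overlap, although insertions of 1 strain are not independent replicates and this difference was not tested.

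Both lists found most of the insertions. An overlapping call of the same family was in the merged list for 171 of 198 calls (86.4%, 80.8 to 90.8), beside 85.4% of all calls, with 21 of 22 for *mdg3*, 42 of 46 for *mdg1*, 33 of 36 for *blood* and 52 of 63 for *412*. The ratio in the merged list minus that in the first had a median of 0 over the 171 shared calls and ran from -4.40 to 2.90, and 142 calls differed by at most 0.5. A ratio of at least 3 in both lists was held by 33 calls (16.7%, 11.8 to 22.6), beside 14.5% of all calls and 22.5% of *roo*. Of the 33 calls, 13 are *412*, 9 *mdg1*, 5 *blood*, 4 *mdg3*, 1 *Stalker2* and 1 *Stalker4*.

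The *412* insertions with the highest ratios lie on X and 3L. An insertion between 4881328 and 4881556 on X (Release 6, as for all positions), in an intron of CG42594, had 19.2 reference reads, a ratio of 6.1 (5.06 to 7.27, an exact 95% Poisson interval of the supporting count, given likewise below) and 5.0 in the merged list. An intergenic one between 13213217 and 13213446 on 3L had 110 supporting reads and ratios of 6.0 (4.94 to 7.24) and 5.9. The third, between 8857422 and 8857678 on X in an intron of CG12075, had ratios of 5.4 (4.37 to 6.54) and 8.3. Their intervals overlap, so these 3 insertions have no order. The only *412* call in an exon with a ratio of at least 3 in both lists lies between 9595225 and 9595490 on 3L in CG42673, with 103 reads and ratios of 3.8 (3.10 to 4.61) and 3.7. The lowest was in an intron of *fra*, the gene of the netrin receptor Frazzled, with 5 supporting reads against 70.2 reference reads, and was absent from the merged list.

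The highest ratio of all 198 calls belongs to *mdg1*. It lies between 21205063 and 21205288 on X in an intergenic interval for which CG32521 is named as the neighbouring gene, with 138 supporting reads, 11.2 reference reads and ratios of 11.3 (9.50 to 13.4) and 11.1. In both lists its interval partly overlaps that of a call of *1360*, a DNA transposon, which has 111 reads and ratios of 7.2 and 8.1. Whether these are 1 insertion called under both names or adjacent insertions was not tested. Next come an insertion between 24474010 and 24474255 on 2R, in an intron of CG13579 and an exon of CG3492 (4.4, 3.66 to 5.20, and 4.2 in the merged list), and calls with a ratio of 4.3 in *SPR*, the gene of the sex peptide receptor, and *fru*, the gene of the courtship regulator Fruitless. The *SPR* call has 130 reads on X between 5453564 and 5453820 (3.61 to 5.13, and 4.3 in the merged list), and the *fru* call 140 reads on 3R between 18540574 and 18540815 (3.61 to 5.07, and 3.9). An exon of *trh*, which encodes the Trachealess transcription factor of the tracheal system, held an *mdg1* insertion between 371494 and 371717 on 3L with 124 reads and ratios of 3.1 (2.54 to 3.64) and 3.6. It lies in one of the regions in which the study placed control probes for fluorescent in situ hybridization. The lowest *mdg1* call, intergenic and near *Ack* on 3L, had 4 supporting and 50.8 reference reads.

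The *mdg3* calls held few low values, and the 2 highest lie on X. Between 21087539 and 21087739 an intergenic call had 77 supporting and 7.4 reference reads and a ratio of 9.2 (7.23 to 11.5), which was 4.8 in the merged list, the largest change between the lists among the 171 shared calls. In an exon of *hiw*, which encodes the ubiquitin ligase Highwire that limits synaptic growth, an *mdg3* insertion between 15012403 and 15012645 had 114 reads and ratios of 4.4 (3.59 to 5.23) and 4.3. It is one of the TEs around which the study designed probes. Of the others with at least 3 in both lists, 1 lies on 3L in an intron of *Eip74EF*, an Ets transcription factor induced by ecdysone (3.1, 2.55 to 3.79, and 4.0, named after its values were seen), and 1 on X in introns of CR44894 and CG43902 (3.3, 2.73 to 3.98, and 3.9). The lowest *mdg3* call was intergenic on 2R, with 5 supporting and 46.1 reference reads.

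The 5 *blood* insertions with at least 3 in both lists were 4 in introns and 1 intergenic. The highest lies between 21249042 and 21249280 on X in an intron of CG32521 with 142 reads, and had ratios of 5.6 (4.71 to 6.59) and 5.4. Thus the highest X calls of *mdg3*, *mdg1* and *blood* lie in this order along X, 117 kb and 43.8 kb apart, an observation made after their values were seen. An intron of CG14082 on 3L held a *blood* insertion with 138 reads and ratios of 4.3 (3.60 to 5.06) and 3.8, and an intergenic one on 2R between 21597980 and 21598224 had ratios of 3.7 (3.08 to 4.46) and 4.2. An intronic *blood* insertion in *bru-3*, a gene of the Bruno family of RNA-binding proteins, lay between 13687137 and 13687378 on 3L. It had 82 reads and ratios of 3.5 (2.79 to 4.35) and 3.9. The study probed the region around it as a control, chosen for its lack of H3K9me2 enrichment. The lowest *blood* call, in an intron of *SP2353*, had 8 supporting and 86 reference reads. The *blood* call in an intron of *CaMKII*, with 23 reads and a ratio of 0.5, was the only one of the 198 on chromosome 4 and is named for this reason after its value was seen.

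Some insertions changed sides of the minimum between the lists. Of the 40 calls at 3 or more, 33 also had 3 or more in the merged list. Over all calls these counts were 247 of 279, in other families 214 of 239 and in *roo* 68 of 68. The difference from *roo* was not tested. A ratio of at least 3 with reads treated as single-end and under 3 with merged reads was found for 7 calls. The *412* calls among them lie in introns of CG7337 (3.2 and 2.4), *dve*, a homeobox gene (3.0 and 2.4), and the non-coding RNA gene CR32773 (3.5 and 2.8), and the *mdg3* call in an exon of *Nipped-A*, which encodes a subunit of histone acetyltransferase complexes (3.4 and 2.9). The other 3 are intergenic, an *mdg1* at 20094872 on 2R (3.5 and 2.8) and *blood* at 11363749 on 2R (3.5 and 2.5) and at 17228079 on X (3.0 and 2.2). In all 7 the lower bound of the interval of the first ratio was under 3. The reverse was found for 3 calls, a *blood* at 16113426 on 2L (2.9 and 5.1), an *mdg1* in an intron of CR32111 (2.3 and 3.5) and an *mdg3* in the 3′ UTR of *fd68A*, a forkhead gene (2.6 and 3.2). The CR32111 call rests on 16 supporting and 5.9 reference reads, the lowest reference value of the 198 calls.

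Over all 198 calls, insertions on X more often had a high ratio than those on the autosomes. X held 27 of 198 calls (13.6%, 9.18 to 19.2), beside 16.3% of all calls, with 14 of *412*, 4 of *mdg1*, 4 of *mdg3*, 2 of *blood* and 1 of each *Stalker* name. A ratio of at least 3 was reached by 13 of 27 calls on X (48.1%, 28.7 to 68.1) and 27 of 171 on the autosomes (15.8%, 10.7 to 22.1), and these intervals do not overlap. The same order was present in other families, with 35.2% (29.3 to 41.5) on X and 12.0% (10.3 to 14.0) on autosomes, and in *roo*, with 44.8% and 16.2%. The difference was thus also present outside the 7 families. Within families the X numbers were small, with 5 of 14 calls on X for *412* (35.7%, 12.8 to 64.9) against 11 of 49 on autosomes (22.4%, 11.8 to 36.6), 3 of 4 against 7 of 42 for *mdg1*, 3 of 4 against 2 of 18 for *mdg3* and 2 of 2 against 5 of 34 for *blood*. For *412*, *mdg1*, *mdg3* and *blood* the intervals of X and autosomes overlap. Median supporting reads were 72 on X and 47 on autosomes over all 198 calls, and median reference reads were 29.4 and 37.4. For *412*, which held 14 of the 27 calls on X, the median ratio was 1.25 on X and 1.2 on autosomes. Its median supporting reads were 36 and 50. Median ratios were 3.95 and 1.4 for *mdg1*, 3.85 and 1.85 for *mdg3* and 4.3 and 1.45 for *blood*. *Stalker2* and *Stalker4* each had 0 of 1 call at 3 or more on X, against 1 of 11 and 1 of 10 on autosomes. The part of local depth in the difference between X and autosomes was not tested. The autosomal calls were divided among 2R (49), 3L (47), 3R (43), 2L (31) and chromosome 4 (1), and none lay on Y, as 4 calls of other families did.

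**Figure D2:**
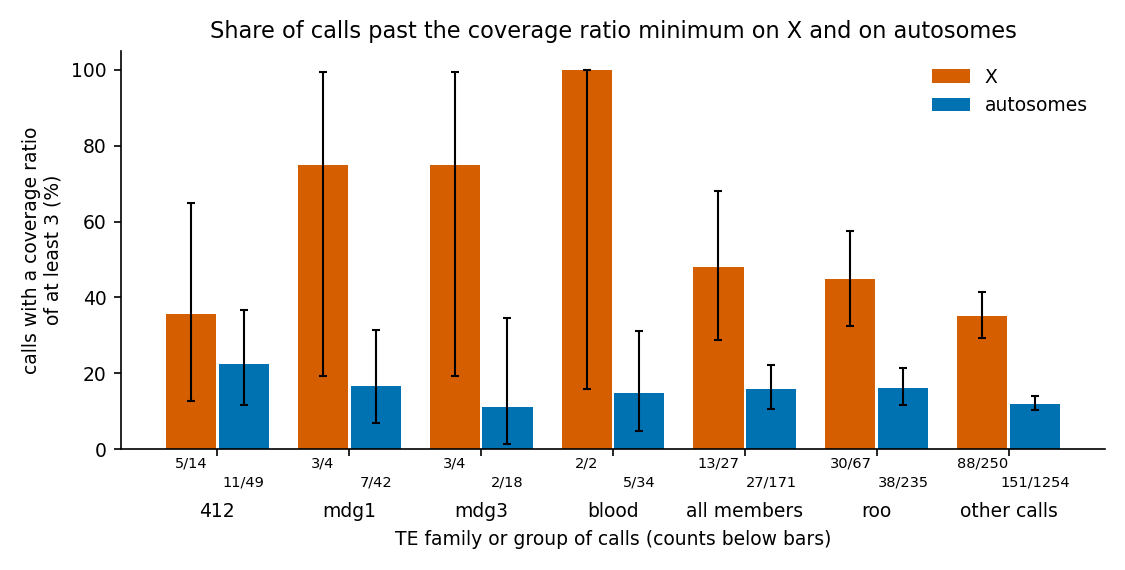
Share of calls (%) whose coverage ratio is 3 or more, on X and on autosomes, for 4 families, for all 198 calls, for *roo* and for all other families, with exact 95% binomial intervals and the counts below the bars. In each group the bar of X is the higher, and the intervals of X and autosomes are apart only for all 198 calls (48.1% and 15.8%), *roo* and other families.

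Gene bodies held 125 of the 198 calls (63.1%, 56.0 to 69.9), beside 65.4% of all calls. A site called under both *Stalker* and *Stalker4* counts under each name here. The share was 17 of 22 for *mdg3* (77.3%, 54.6 to 92.2), 44 of 63 for *412* (69.8%, 57.0 to 80.8), 21 of 36 for *blood* (58.3%, 40.8 to 74.5) and 23 of 46 for *mdg1* (50%, 34.9 to 65.1). The whole list's share lies just above the upper bound of *mdg1*. Introns alone held 101 calls (51.0%, 43.8 to 58.2), beside 54.1% of all calls, and *mdg1* had 16 of 46 (34.8%, 21.4 to 50.2), with its upper bound below the share of the whole list. The difference of *mdg1* from the rest was not tested. Exons or UTRs held 24 calls (12.1%, 7.92 to 17.5), beside 11.3%. These were 13 in exons, 9 in 3′ UTRs and 2 in 5′ UTRs, with 8 of *412*, 7 of *mdg1*, 4 of *mdg3* and 1 of *blood*, and the rest under the *Stalker* names. A ratio of at least 3 was reached by 5 of 24 calls in exons or UTRs (20.8%, 7.13 to 42.2), 21 of 101 in introns (20.8%, 13.4 to 30.0) and 14 of 73 between genes (19.2%, 10.9 to 30.1), beside 15.0%, 15% and 19.0% over all calls, and a difference between gene parts within these wide intervals was not tested. The RefSeq span of each host gene was found for every insertion in a gene, and the median length of these genes was 34.5 kb, beside 35.1 kb over all calls, with 47.3 kb for *mdg3*, 38.7 kb for *412*, 35.4 kb for *mdg1* and 28.0 kb for *blood*. The longest host was *kirre*, an immunoglobulin-type adhesion gene of muscle precursors, at 394 kb, and it carried an *mdg1* with ratios of 3.6 and 4.8, which is named for this length after its values were seen.

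**Figure D3:**
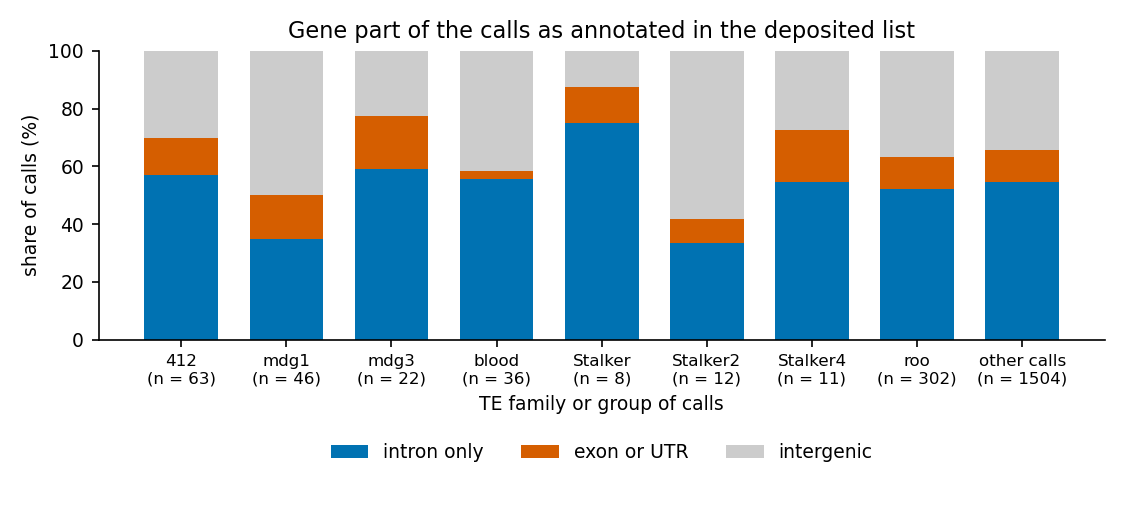
Share of calls (%) annotated in introns only, in exons or UTRs, or between genes, by family, with *roo* and all other families beside them and the number of calls under each name. *mdg1* and *Stalker2* have the lowest shares in introns (34.8% and 33.3%), and *blood* has 1 of 36 calls in an exon or UTR.

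No genome sequence was used here, but for most calls the reads show which end of the LTR each side of an insertion reached. For every call the list gives a position in the TE sequence for each side, and these positions lay in the LTRs at both ends of the element. For *412* they fell between 1 and 488 or between 7068 and 7541, for *mdg1* between 1 and 420 or 7038 and 7459, for *mdg3* between 16 and 248 or 5250 and 5493, and for *blood* between 4 and 375 or 7010 and 7388. Since both LTRs of a copy are alike, a position in one stands for the same position in the other, and the outer ends of the LTR give the orientation of the copy. With the first position taken as that of the side with the lower coordinate, an orientation was read for 186 of 198 calls, 91 plus and 95 minus. It was the same in both lists for 164 of 164 calls. Both lists come from the same libraries and caller and were read by the same rule. Their agreement therefore cannot show which side is listed first.

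Most *412* insertions in introns were read as opposite to their host gene, if the first position is that of the lower coordinate. Of the 34 with an orientation and a single host strand, 26 were read as opposite (76.5%, 58.8 to 89.3), and of the 9 with a ratio of at least 3, 8 were (88.9%, 51.8 to 99.7), the exception being that in CG12075. The opposite ones include the insertions in CG42594, in *px*, a wing vein gene (4.9 and 4.7 in the merged list), in CG9674 (4.7 in both) and in *Rbp6*, an RNA-binding protein gene (4.5 and 4.7), the last 3 being named after their values were seen. For *mdg1* 8 of 15 were opposite, for *mdg3* 7 of 12 and for *blood* 10 of 19, and over all members 60 of 96 were (62.5%, 52.0 to 72.2). Of *roo* insertions in introns, 59 of 135 were opposite (43.7%, 35.2 to 52.5). The intervals of *mdg1* (26.6 to 78.7), *mdg3* (27.7 to 84.8) and *blood* (28.9 to 75.6) overlap those of both *412* and *roo*. Whether *412* differs from *roo* was not tested. The share over the intron calls of all families was not computed, so neither family can be set against the whole list. The direction rests on which side the first position belongs to, which the list does not state. If the sides were listed the other way, the same shares would be those of insertions in the direction of the gene.

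**Figure D4:**
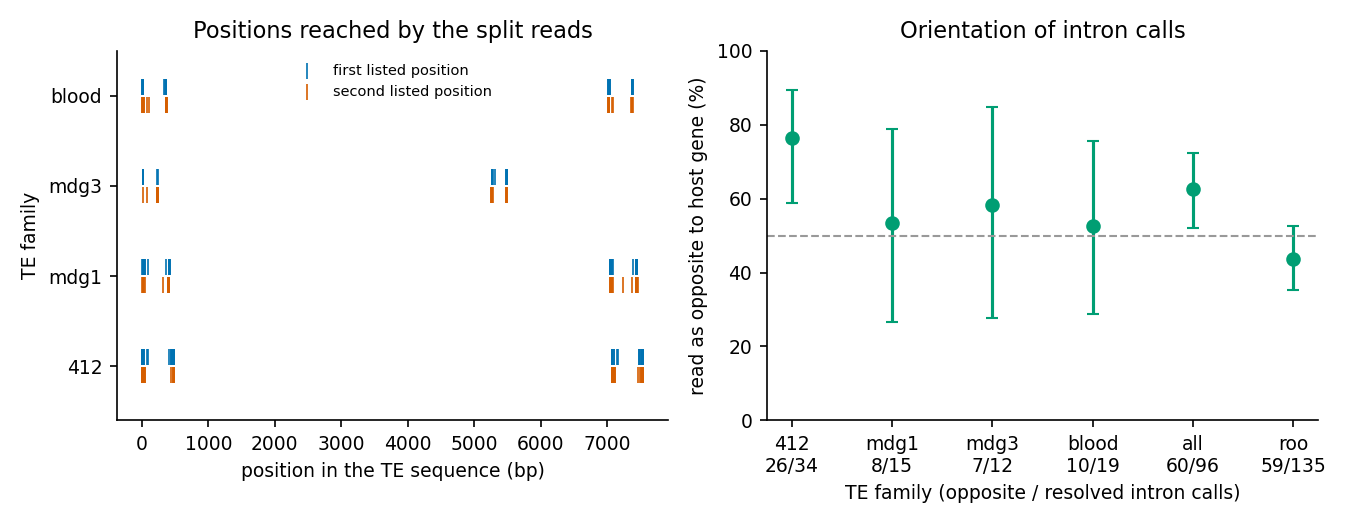
Left, positions in the TE sequence (bp) reached by the split reads of the first and second side of each call, for 4 families. Right, share of intron calls (%) read as opposite to the host gene with exact 95% binomial intervals, a dashed line at 50% and the counts below each family. The positions lie at both ends of each element, and 26 of 34 intron calls of *412* were read as opposite, against 59 of 135 of *roo*.

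The supporting reads of an insertion are expected from both of its sides. Per call, they were compared by a two-sided exact binomial test against equal shares, with Benjamini-Hochberg adjustment over all 1702 calls. The test takes reads as independent, although both reads of an overlapping pair can count here, so its p-values may be too small. The sides differed in 13 of 198 calls (6.57%, 3.54 to 11.0), beside 7.64% of all calls, and in 4 of 175 calls of the merged list. The 13 were 5 of *mdg1*, 3 of *412*, 3 of *mdg3* and 2 of *Stalker2*, and 0 of 36 of *blood*, which allows a share of up to 9.74%. All 5 *mdg1* calls had more reads on the second side. The smallest adjusted p was that of the *mdg1* call in *kirre*, with 21 and 69 reads (adjusted p = 2.06e-05 by the exact binomial test) and 14 and 47 in the merged list. The *412* call at 6597452 in CG11319 had 15 and 55 reads (adjusted p = 8.04e-05 by the exact binomial test), but 24 and 32 in the merged list.

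Each *Stalker* call overlapped a *Stalker4* call, so the 198 calls stand for 190 sites. The shared sites lie in introns of CG11221, *mtt*, CG44251, *CngA*, *rdgC* and *Gyc88E*, in an exon of CG6106, and between genes on 3L. In CG6106 the counts were 53 reads for *Stalker* and 69 for *Stalker4*, with ratios of 1.7 and 2.3. In CG11221 they were 36 and 51 (2.2 and 3.2), and in *Gyc88E*, a guanylyl cyclase gene, 24 and 46 (0.7 and 1.3). In *mtt*, a gene related to metabotropic glutamate receptors, they were 25 and 35 (0.6 and 0.9). *Stalker4* thus had the larger count at the 4 sites with more than 20 reads, whereas at the 4 others both counts were at most 12, with *CngA*, a cyclic nucleotide-gated channel gene, at 12 and 6. The CG11221 insertion is the only one of these sites with a ratio of at least 3, and only under the name *Stalker4* (3.2, 2.42 to 4.27, and 3.6 in the merged list). Whether a read was counted under both names was not tested. *Stalker2* shared no site with them. Its highest call, between 22314453 and 22314700 on 3L in an intron of *Ten-m*, which encodes a teneurin adhesion protein, had 152 reads and ratios of 6.6 (5.55 to 7.68) and 4.8. Its lowest, in an exon of the cytochrome P450 gene *Cyp6a9*, had 5 reads and was absent from the merged list.

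**Figure D5:**
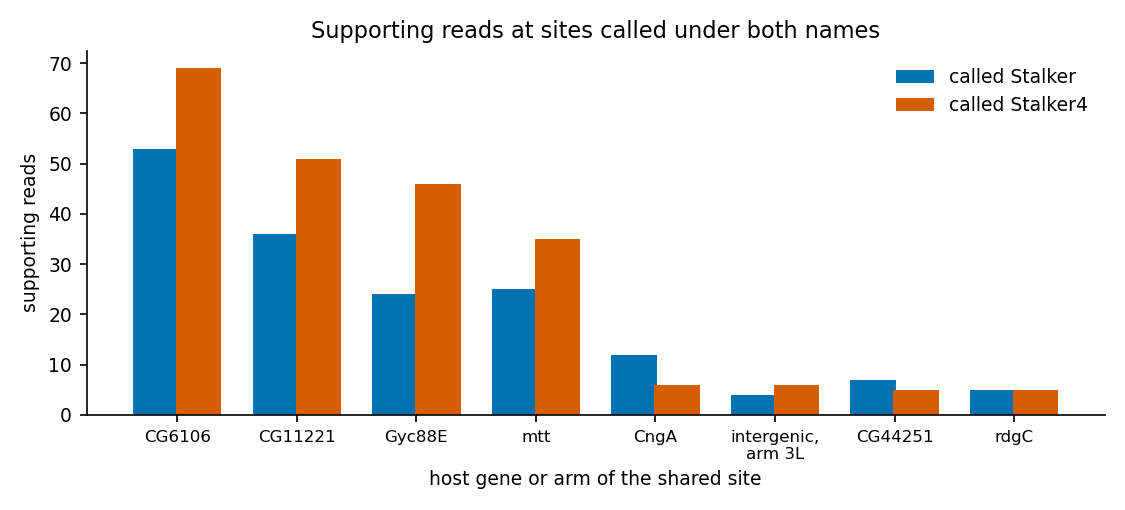
Supporting reads at the 8 sites called as both *Stalker* and *Stalker4*, by host gene or chromosome arm. The *Stalker4* bar is the higher at the 4 sites with the most reads, from 69 against 53 in CG6106 to 35 against 25 in *mtt*.

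Of the 119 genes that hosted an insertion, 8 had at least 2 calls, and 5 of these were single sites called under both *Stalker* names. In CG11221 a *blood* insertion (31 reads, ratio 0.8) lay 1.04 kb from the *Stalker4* one, and in *mtt* a *blood* insertion (59 reads, 1.5) lay in another intronic interval. CG11319 held a pair of *412* insertions 8.37 kb apart, with 30 and 70 reads and ratios of 0.7 and 2.0, the first read as opposite to the gene and the second as in its direction. Apart from these, member calls within 10 kb of each other were a *Stalker2* in an intron of *Cpr76Bc* (78 reads, 2.5), 8.76 kb from the *Stalker4* site on 3L (6 reads, 0.2), and a pair of *412* on X 0.44 kb apart. In the latter the call at 19987977 had 5 reads and a ratio of 0.1 and that at 19988565 had 135 reads and 4.7 (5.9 in the merged list, which lacks the weaker call).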

How the data were processed

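The authors pooled 3 replicates of genomic DNA reads of ORw1118 females, filtered them with Trim Galore and called TEs with TIDAL at default parameters, once with paired reads treated as single-end (1702 calls) and once with overlapping pairs merged and trimmed to 200 bp (1487 calls, 175 of the 7 families). Counts of supporting split reads were deposited without normalization. Reference reads were deposited as a signal normalized in a way not given in the sources used here. The deposited coverage ratio equals supporting reads over reference reads plus 1, within 0.051. A BLAT score per call, on a scale not given in the sources used here, was deposited too and supports no statement. Counts of supporting reads on each side were deposited by the authors and used as given, and the deposited fraction on the first side was not used. Sequencing depth per replicate is unknown because the lists are pooled, and 0 columns of other samples were present.

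Values were computed in Python 3.11.15 with pandas 2.3.3, scipy 1.17.1 and numpy 2.4.6, and plotted with matplotlib 3.10.9. Intervals are exact, at 95%, Poisson for supporting reads (reference reads taken as fixed) and Clopper-Pearson for shares, and cover counting error only. Where reads were treated as single-end, both reads of an overlapping pair can count towards the same insertion. The Poisson intervals take reads as independent and may therefore be too narrow. Calls of both lists matched when of the same family and overlapping by at least 1 bp. Gene parts are those of the lists, and gene spans are those of RefSeq, Release 6. An LTR position was assigned to the start or end of the repeat by the side of its midpoint on which it fell. Families, lists and alternatives were chosen with earlier results of these data known. Calls are named by a rule: the 3 highest ratios per family among calls with at least 3 in both lists and the lowest, calls in regions the study probed, calls in exons or UTRs with at least 3 in both lists, calls that pass in 1 list only, genes with at least 2 calls and pairs within 10 kb. The alternatives were other minimums, merged reads, at least 10 reads, RefSeq genes and other matching rules.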

Additional observations from a re-analysis of the deposited data

How the results depend on the processing

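Of 147 values recomputed under alternatives, 119 stayed within the exact 95% binomial interval of the main share or median (for a count, within 1.5 times) and 28 moved further. Minimums of 2, 4 and 5 in place of 3 gave shares of 37.9%, 9.60% and 4.04% over all members, 38.1%, 14.3% and 6.35% for *412*, 41.3%, 10.9% and 2.17% for *mdg1*, and 38.9%, 5.56% and 2.78% for *blood*. For *mdg3* minimums of 2 and 5 gave 50% and 4.55%, and for *Stalker4* those of 4 and 5 gave 0 of 11. With the lower Poisson bound required to reach 3, the share was 12.1% over all members and 0 for *Stalker4*. With at least 10 reads per call the median ratio was 1.80 and the median count 61. In the merged list median counts were 32 over all members, 40.5 for *mdg3* and 30 for *blood*, and the sides differed in 4 of 175 calls. Among calls with a ratio of at least 3, X held 32.5% over all members, 30% of *mdg1*, 60% of *mdg3* and 28.6% of *blood*. Shares in genes, shares found in the merged list and the share of intron calls read as opposite stayed within the main intervals under the alternatives tried. These intervals are wide for small families. The share of *Stalker2* calls in genes went from 41.7% to 58.3% with RefSeq gene bodies and still lay inside. Counting each *Stalker* pair once and the alternatives for orientation were chosen after seeing the data. The medians of GC content were not run, because no genome of the lists' build was given, nor were shares over fewer than 5 calls. No paired analysis was possible because the replicates form 1 group and were pooled before calling, which also leaves no replicate to leave out. Depth left 24 of the 40 calls at 3 or more with a lower bound of at least 3, a bound that takes both reads of a pair as independent.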

Other observations

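The merged list held 4 calls of these families with no counterpart of the same family name in the other list. They were a *Stalker* on 3R at 27504813 (5 reads, ratio 0.2), whose site overlaps a *Stalker4* call of the other list (18 reads, 0.4), a *Stalker2* in an intron of *stau*, the gene of the RNA-binding protein Staufen (4 reads, 0.1), a *blood* in introns of *Ptp61F* and *ru* (6 reads, 0.1) and an *mdg3* on 3L at 16021740 near CR43949 (5 reads, 0.2).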
